A study of Homo sapiens with 4 samples.

Results

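Molecular chaperones bind unfolded or newly made proteins and help them reach their folded state. The genes described here were 41 chaperones and partner proteins of the cytosol, the cytosolic chaperonin, the mitochondria and the endoplasmic reticulum (ER). They were taken as a list by name, with earlier results of these data known. Contrasts with all genes are thus not independent of that choice. A gene was measured where a probe set of the array carried its symbol and no other, and the probe set with the highest mean log2 signal stood for it. This gave 40 of 18132 measured genes: 14 of the cytosol, 8 of the chaperonin, 5 of the mitochondria and 13 of the ER. AHSA1 was not analysed here. The list is wider than its name, since HSF1 is a transcription factor and HERPUD1 a membrane protein of ER-associated degradation.

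The cells were U87MG, an established human glioblastoma line. The 4 samples were taken at 24 h, and each was read on 1 Affymetrix PrimeView array. The control had DMSO, the other three had mycophenolic acid (MPA) at 10 µM, guanosine at 100 µM, or both at those doses, and the labels name DMSO for the control sample alone. MPA blocks IMP dehydrogenase, an enzyme of guanine nucleotide synthesis, and added guanosine offers cells a route around the block. The values are RMA signals on the linear scale, and differences are given on the log2 scale. With 1 array for each condition there was no replicate spread and no test, so every difference below is one between 2 samples.

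Cytosolic HSP70 proteins hold unfolded stretches of protein, J-domain proteins of the HSP40 family bring substrates to them, and HSP90 takes over late folding steps. The chaperonin, called TRiC or CCT, is a ring of related subunits that encloses actin, tubulin and other proteins. HSP60 and HSP10 form the corresponding cage in mitochondria, and BiP, GRP94, calnexin and calreticulin serve proteins that enter the ER. HSF1 drives heat shock genes through paired GAA units in their promoters. ATF6 and XBP1 drive ER chaperone genes through the ER stress response element, and E-boxes are bound by MYC and related factors.

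RefSeq promoters (GRCh38.p14) were matched for 36 of the 40 genes, all but HSF1, CCT6A, GRPEL1 and PDIA3. The 250 bases before the annotated start were searched on both strands. The stretches below are shown because they hold exact matches to motifs of the heat shock, ER stress and E-box kinds. Matches in HSPA1B, TCP1, DNAJB9 and HERPUD1, and the E-box of HSP90B1, are described but not printed. Capitals mark the motif, and each stretch reads 5′ to 3′ on the strand of its gene.
HSPA8, chr11:123062336-123062386, minus strand, heat shock element: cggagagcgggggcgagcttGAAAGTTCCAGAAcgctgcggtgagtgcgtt
HSPA8, chr11:123062156-123062216, minus strand, heat shock element: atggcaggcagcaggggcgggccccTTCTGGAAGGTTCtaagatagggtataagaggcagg
DNAJA1, chr9:33025048-33025108, plus strand, pair of heat shock units: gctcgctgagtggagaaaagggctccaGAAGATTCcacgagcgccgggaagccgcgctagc
HSPB1, chr7:76302463-76302523, plus strand, pair of heat shock units: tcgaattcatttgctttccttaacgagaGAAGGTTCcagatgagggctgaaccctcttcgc
HSPB8, chr12:119178816-119178876, plus strand, pair of heat shock units: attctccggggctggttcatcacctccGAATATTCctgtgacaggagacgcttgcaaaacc
HSPD1 and HSPE1, all bases between the starts, chr2:197500275-197500378, plus strand, E-box: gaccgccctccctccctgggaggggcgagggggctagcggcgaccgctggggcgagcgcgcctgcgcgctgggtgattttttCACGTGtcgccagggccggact
HSPA9, chr5:138575402-138575461, minus strand, E-box: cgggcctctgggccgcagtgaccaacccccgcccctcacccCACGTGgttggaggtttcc
HSPA5, chr9:125241363-125241433, minus strand, ER stress response element: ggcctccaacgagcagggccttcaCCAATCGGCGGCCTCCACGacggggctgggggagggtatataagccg
HSP90B1, chr12:103930195-103930360, plus strand, ER stress response elements: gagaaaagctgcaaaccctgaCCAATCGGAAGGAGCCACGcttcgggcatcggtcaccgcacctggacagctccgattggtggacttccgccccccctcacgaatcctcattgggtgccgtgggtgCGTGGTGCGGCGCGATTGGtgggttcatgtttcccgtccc
CALR, chr19:12938359-12938429, plus strand, ER stress response element: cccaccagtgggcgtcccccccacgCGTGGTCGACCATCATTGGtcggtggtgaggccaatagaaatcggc
CANX, chr5:179698754-179698819, plus strand, ER stress response element: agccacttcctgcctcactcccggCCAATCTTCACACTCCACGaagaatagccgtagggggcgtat

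The ER stress response element, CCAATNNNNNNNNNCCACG, was found in HSPA5, HSP90B1, CALR and CANX, 4 of 12 ER promoters. It was in 0 of 24 promoters of the other compartments and in 0.0806% of all 27305 promoters searched. Its end, CCACG, was in 10 of 12 ER promoters and in 33.3% of all promoters. CCAAT, its other end, was in 11 of 12 ER promoters and in 33.0% of all.

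The heat shock element of 3 units, which is GAANNTTC extended by NN and a further GAA, was found in 1 promoter, HSPA8, at positions -230 to -218 and -55 to -43 from the start. It was in 0.439% of all promoters. GAANNTTC itself was in HSPA1B, HSPA8, DNAJA1, HSPB1 and HSPB8, 5 of 13 cytosolic promoters, and in TCP1 of the chaperonin, against 5.85% of all promoters. The tail-to-tail pair TTCNNGAA was in HSPA8 alone among these genes and in 6.72% of all promoters.

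The E-box, CACGTG, was in 3 of 4 mitochondrial promoters, HSPD1, HSPE1 and HSPA9, and in HSP90B1, DNAJB9 and HERPUD1 of the ER. It was in 0 of 13 cytosolic and 0 of 7 chaperonin promoters and in 6.49% of all promoters. HSPD1 and HSPE1 run in opposite directions from starts with 104 bases between them, so 1 E-box was counted for both. A match is a description of the letters, and no factor's binding was measured.

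**Figure D1:**
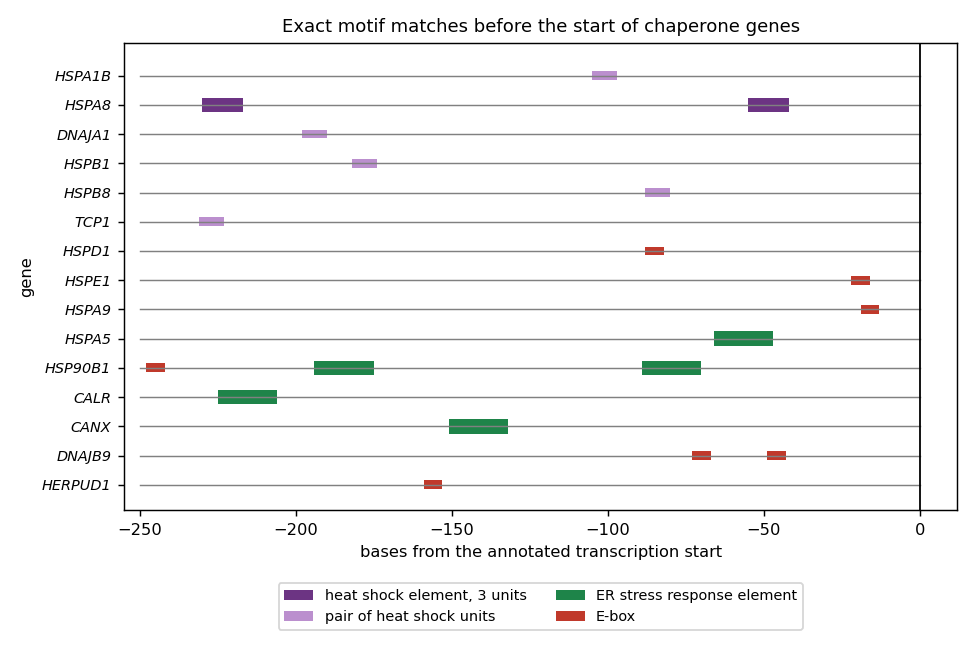
Positions of exact motif matches in the 250 bases before the annotated transcription start (x axis, bases; the start is at 0) for the chaperone genes that held at least 1 of the 4 motifs shown. ER stress response elements lie in HSPA5, HSP90B1, CALR and CANX, heat shock units in the cytosolic genes and TCP1, and E-boxes in HSPD1, HSPE1, HSPA9 and 3 ER genes.

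All 40 genes were at or above the floor for dim signals, 63.0, on all 4 arrays. A gene was counted as different when the signals of 2 arrays differed by at least 1.5-fold, which is 0.585 on the log2 scale. Of the glioma and astrocyte markers, VIM, CD44, NES and GFAP were above the floor on all 4 arrays, OLIG2 on 2, and S100B, AQP4, SOX2 and FABP7 on 0. The summed signal of 4 leukocyte markers lay between 86.38 and 101.5, with all 4 below the floor on every array. The endothelial marker VWF, at 80.09 to 110.7, and the neuronal marker SYP, at 132.1 to 161, were above it on all 4. The endothelial PECAM1 was above it on 2 and CDH5 on 0. The neuronal marker SNAP25 read 1144 in the control and 1867 with MPA, and the epithelial marker EPCAM 55.53, below the floor, and 102.2. Poly-A spike-in probe sets, which read RNA added at labelling, were lower on the MPA array than on the control array in 12 of 12 cases with a median of -0.29. They were higher by 0.22 with guanosine and by 0.27 with both compounds. The part of these differences in the results below was not tested, and fewer cells of a type cannot be told apart from less RNA per cell.

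Chaperonin subunits and mitochondrial chaperones were lower on the MPA array than on the control array throughout, cytosolic HSP70 and HSP40 genes were mostly lower, and small heat shock proteins and some ER genes were higher. Of the 40 genes, 31 were lower and 9 higher, with a median of -0.24. Among 11204 genes compared, 49.1% were lower and the median was 0.0062. Among the 6697 genes that reached the 75th percentile of all signals, 56.2% were lower and the median was -0.05. The spike-in median of -0.29 lay in the same direction as the chaperone median.

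Lower by at least 1.5-fold were 4 of the 40: CCT6A, HSPD1, CCT4 and DNAJA1. That share, 1 gene in 10, lies near the 7.31% of all genes that passed 1.5-fold downward. None of the chaperones was higher by at least 1.5-fold (0 of 40), where 5.31% of all genes were. CCT6A was lower by over 2-fold, as were 1.4% of all genes. The MPA array was the dimmest of the 4 for 27 of the 40 chaperones, or 67.5%, and for 41.7% of 11272 genes above the floor. Cyclic loess on top of RMA, or a shift of the arrays to one median, left 3 of the 4 past 1.5-fold, without DNAJA1.

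**Figure D2:**
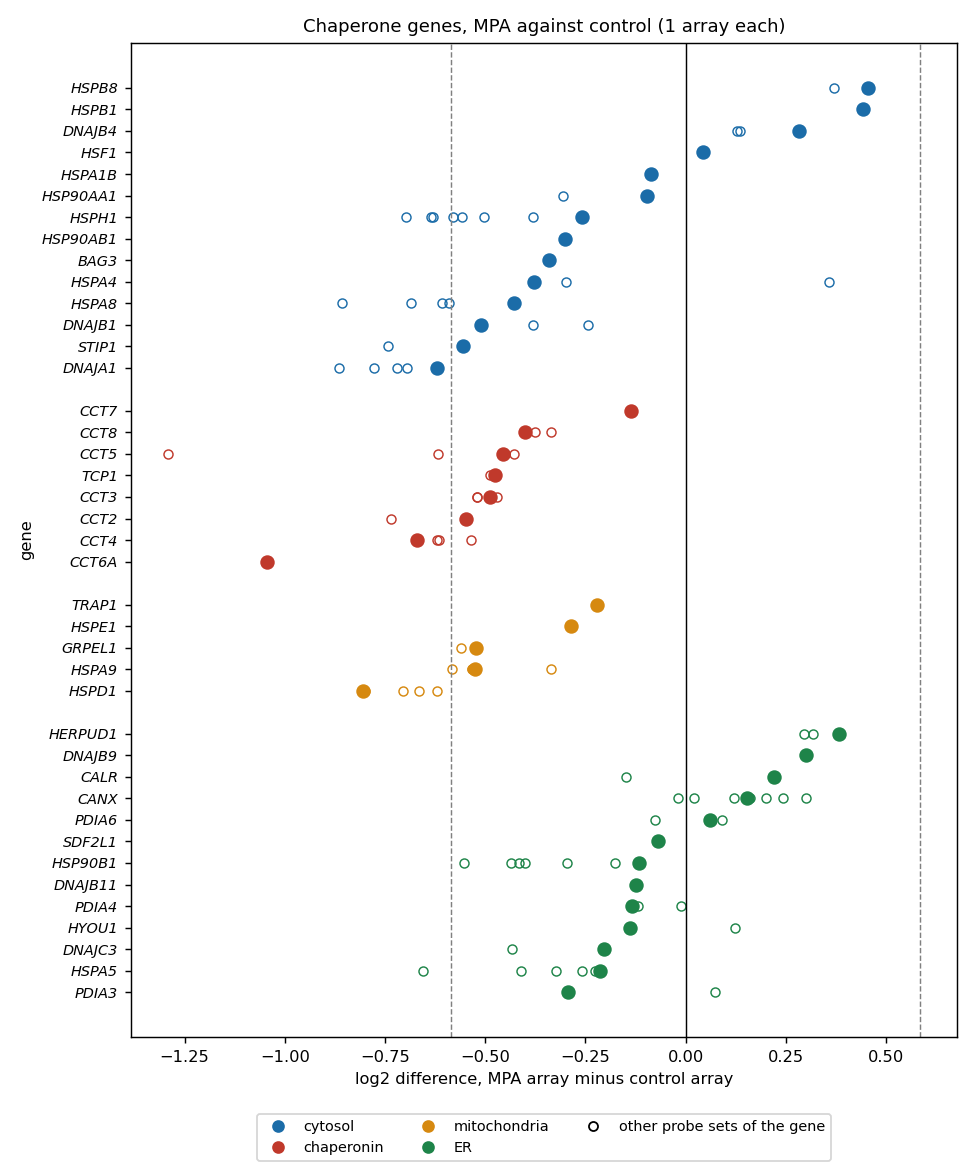
Log2 signal on the MPA array minus the control array (x axis) for each chaperone gene (y axis, grouped by compartment). Filled points are the probe set that stands for the gene, open points its other probe sets above the floor, and dashed lines mark 1.5-fold. All chaperonin and mitochondrial points lie left of 0, and HSPB8, HSPB1 and HERPUD1 lie furthest right.

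All 8 chaperonin genes were lower with MPA, with a median of -0.48 and a range from -1.04 (CCT6A) to -0.14 (CCT7). All 23 of their probe sets above the floor were lower. CCT6A had a signal of 1661 in the control, 805.6 with MPA, 1509 with guanosine and 1447 with both compounds. It was 2.06-fold lower with MPA than in the control, and the MPA array stood apart below the other 3. CCT4 read 6881, 4320, 6023 and 6003 in the same order, 1.59-fold lower with MPA, and its 3 other probe sets differed by -0.62 to -0.54. The other subunits with a difference near the group median were CCT2 (-0.55), CCT3 (-0.49), TCP1 (-0.48), CCT5 (-0.46) and CCT8 (-0.40). A dimmer CCT5 probe set read 173.7 in the control and 71.0 with MPA, a difference of -1.29. CCT7 was the exception in size, at 4003 in the control and 3642 with MPA. CCT6A and CCT7, the extremes, have no other probe set above the floor, and the other CCT5 probe sets ranged from -1.29 to -0.43. Unequal amounts between the subunit genes thus cannot be told apart from differences between probe sets.

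All 5 mitochondrial genes were lower with MPA, with a median of -0.52, and all 14 of their probe sets above the floor were lower. HSPD1, which encodes HSP60, read 5105 in the control, 2921 with MPA, 4886 with guanosine and 5040 with both. It was 1.75-fold lower with MPA, at -0.81, and its 4 other probe sets differed by -0.80 to -0.62. HSPE1, which encodes the HSP10 lid and shares the promoter stretch shown above, read 554.1 in the control and 454.5 with MPA, a difference of -0.29 on a probe set whose probes can bind several genes. The brighter of 2 further HSPE1 probe sets, which also carry HSPE1-MOB4, differed by -0.23. The 2 genes of the pair thus differed by unequal amounts on these arrays.

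HSPA9, the mitochondrial HSP70 called mortalin, read 3371 in the control, 2341 with MPA, 3848 with guanosine and 3738 with both. It differed by -0.53 with MPA, and its 4 other probe sets by -0.58 to -0.33. Its nucleotide exchange factor GRPEL1 read 909.4, 633.0, 952.3 and 912.4 and differed by -0.52. TRAP1, the mitochondrial HSP90, had the smallest difference of the group, -0.22. For HSPA9 and GRPEL1 the guanosine array was the brightest of the 4, and for all 5 genes the MPA array was the dimmest.

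In the cytosol, 10 of 14 genes were lower with MPA and 4 were higher, with a median of -0.28. HSPA8, the constitutive HSP70 called HSC70, read 15784 in the control, 11727 with MPA, 14139 with guanosine and 13410 with both. That difference of -0.43 was the smallest of its probe sets above the floor, and the 4 dimmer ones differed by -0.86 to -0.59, all past 1.5-fold. Its relative HSPA1B, the stress-inducible HSP70, read 483.7, 455.4, 514.2 and 533.2 and differed by only -0.09 with MPA. The HSPA1B probe set can bind several genes, and 3 probe sets above the floor that also carry HSPA1A differed by -0.26 to -0.11.

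DNAJA1, a farnesylated HSP40, read 3604 in the control, 2343 with MPA, 2926 with guanosine and 2965 with both. It was 1.54-fold lower with MPA, and its 4 other probe sets differed by -0.86 to -0.70. DNAJB1, the heat-inducible HSP40, read 1335, 937.4, 1170 and 1171, a difference of -0.51. Both had their highest signal in the control and their lowest with MPA. STIP1, which links HSP70 to HSP90, differed by -0.55, the exchange factor HSPA4 by -0.38, with 0.36 at one of its other probe sets, and its relative HSPH1 by -0.26, with 7 other probe sets from -0.70 to -0.38.

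Of the HSP90 genes, HSP90AA1, the inducible form, read 7679 in the control, 7187 with MPA, 7488 with guanosine and 6819 with both, and its difference with MPA was -0.10. HSP90AB1, the constitutive form, read 4621, 3751, 4401 and 4265, a difference of -0.30. BAG3, a co-chaperone of HSP70 and the small heat shock proteins, differed by -0.34. The mRNA of HSF1 read 329.4, 339.3, 310.3 and 285.9, a difference of 0.04 with MPA. The activity of the HSF1 protein is not read by an mRNA array.

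The small heat shock proteins, which hold unfolded proteins without ATP, lay on the other side. HSPB8 read 293.0 in the control, 401.7 with MPA, 281.7 with guanosine and 296.6 with both, 1.37-fold higher with MPA. HSPB1, which encodes HSP27, read 1319, 1794, 1050 and 1128, 1.36-fold higher with MPA. HSPB1 had 1 probe set, of the kind whose probes can bind several genes. The MPA array was the brightest of the 4 for both genes. DNAJB4, an HSP40, was also higher with MPA, at 272.2 against 223.7, and its 2 other probe sets differed by 0.14 and 0.13.

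GAANNTTC stood in promoters on both sides: HSPA8, DNAJA1, HSPA1B and TCP1 were lower with MPA and HSPB1 and HSPB8 higher. The median difference with MPA was -0.26 for the 6 genes that held it and -0.22 for the 30 that did not. For the E-box the medians were -0.20 over 6 genes and -0.22 over 30. Those 6 pool HSPD1, HSPE1, HSPA9 and HSP90B1, which were lower, with HERPUD1 and DNAJB9, which were higher. For the ER stress response element they were 0.02 over 4 genes and -0.27 over 32. All 4 are ER genes, a compartment with a median of -0.12, and most of the 32 are not. The medians over 4 and 32 genes thus mix motif with compartment. Within the ER, genes with the element ranged from -0.21 (HSPA5) to 0.22 (CALR). Those whose searched promoter lacked it ranged from -0.20 (DNAJC3) to 0.38 (HERPUD1). Whether the element plays a part was not tested. CALR, 1 of the 4 with the element, had -0.15 at its other probe set above the floor. With that probe set the median over the 4 would lie below 0, so the 0.02 depends on the CALR probe set read.

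The ER genes were the least displaced compartment, with 8 of 13 lower, 5 higher and a median of -0.12, and 0 passed 1.5-fold. Cyclic loess turned SDF2L1 from -0.07 to above 0 and left 7 of 13 lower. HSPA5, which encodes BiP, the ER HSP70, read 6894 in the control, 5942 with MPA, 6449 with guanosine and 6629 with both. Its difference was -0.21, with 5 other probe sets from -0.65 to -0.23. HSP90B1, which encodes GRP94, read 8943, 8259, 8966 and 8955, a difference of -0.12, with 6 other probe sets from -0.55 to -0.18. For both genes the brightest probe set showed the smallest difference.

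HERPUD1, an ER membrane protein of protein degradation, had the largest positive difference with MPA in the ER. It read 610.0 in the control, 795.6 with MPA, 648.2 with guanosine and 627.4 with both, 1.30-fold higher with MPA, and its 2 other probe sets differed by 0.32 and 0.30. DNAJB9, a BiP partner induced by IRE1 and XBP1, read 223.4, 275.0, 264.4 and 262.8, higher by 0.30 with MPA and by 0.24 with guanosine. DNAJB9 was lowest in the control, and the 3 treated arrays lay close together.

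The lectin chaperone CANX differed by 0.15 with MPA, with 7 of 8 other probe sets also above 0, and CALR by 0.22, with -0.15 at its other probe set above the floor. CALR was dim, at 96.23 in the control and 112.2 with MPA against a floor of 63.0, on a probe set whose probes can bind several genes. The disulfide isomerases were mixed. PDIA3 was lowest at -0.29, with 0.07 at its dimmer probe set, PDIA4 differed by -0.13 and PDIA6 by 0.06, with -0.08 at one of its other probe sets. SDF2L1, which works with BiP and DNAJB11, read 892.1 in the control, 850.3 with MPA, 800.1 with guanosine and 923.8 with both, a difference of -0.07. DNAJC3 (-0.20), HYOU1 (-0.14) and DNAJB11 (-0.12) were the remaining ER members on the lower side, with 0.12 at the other HYOU1 probe set above the floor.

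**Figure D3:**
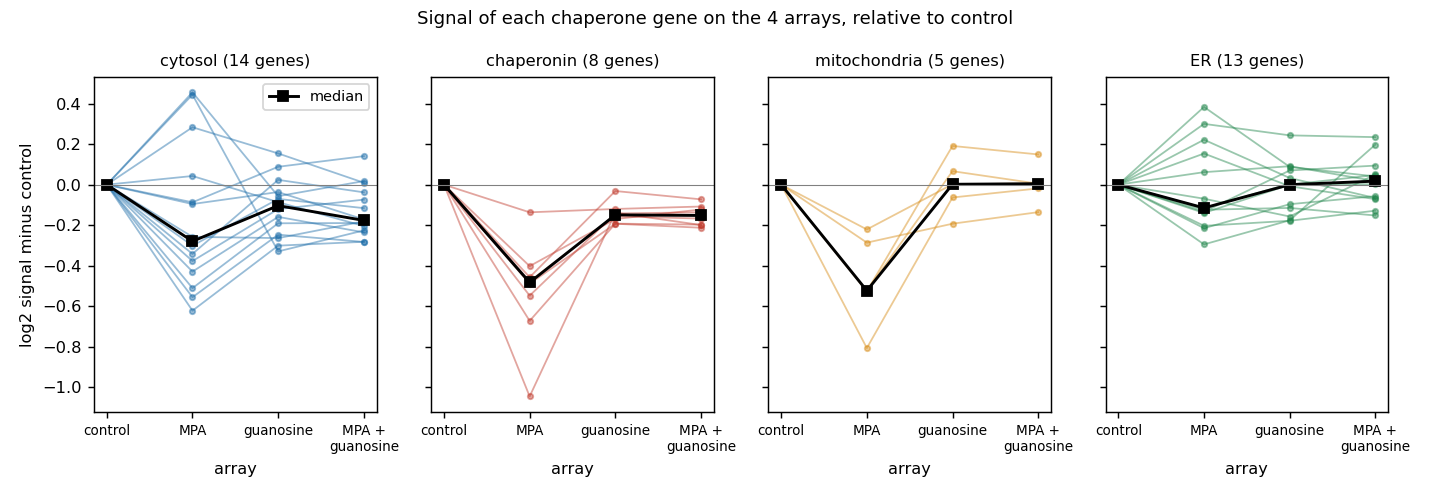
Log2 signal on each of the 4 arrays (x axis) minus that on the control array (y axis), 1 thin line for each gene and a black line for the median of its compartment. The medians with MPA were -0.48 for the chaperonin, -0.52 for mitochondria, -0.28 for the cytosol and -0.12 for the ER, and the guanosine and combined arrays lay nearer 0.

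Guanosine alone gave smaller differences from control. Of the 40 genes, 27 were lower and 13 higher with a median of -0.09, where 50.3% of all genes were lower, and 0 passed 1.5-fold in either direction, where 0.11% of 10919 passed downward and 0.339% upward. All 8 chaperonin genes were lower, within the narrow range from -0.19 (CCT3) to -0.03 (CCT5), and stayed lower after cyclic loess and after a median shift of the arrays. In the cytosol 11 of 14 were lower, from HSPB1 at -0.33 to DNAJB4 at 0.15, with DNAJA1 at -0.30. The mitochondrial genes had a median of 0.0018, from HSPE1 at -0.19 to HSPA9 at 0.19, and the ER genes a median of 0.0003, from DNAJC3 at -0.18 to DNAJB9 at 0.24. Mitochondrial and ER medians turned negative after cyclic loess, at -0.015 and -0.01, and after the median shift.

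With both compounds against control, 26 of the 40 genes were lower and 14 higher with a median of -0.07, where 45.7% of all genes were lower. Past 1.5-fold were 0 of 40, where 0.137% of 10931 genes passed downward and 0.421% upward. The chaperonin median was -0.15 with 8 of 8 lower, the cytosolic median -0.18, the mitochondrial 0.0047 and the ER median 0.02. The last became -0.0006 after cyclic loess, and the mitochondrial median became -0.02. STIP1 was lowest at -0.28 and DNAJB9 highest at 0.23. The comparisons of MPA, of guanosine and of both compounds with control share the control array, which was the brightest of the 4 for 21 of the 40 genes, for 8 of 8 chaperonin genes and for 2330 of 11272 genes above the floor. With the guanosine array as the reference for MPA, the medians were -0.36 for the chaperonin, -0.59 for mitochondria, -0.20 for the cytosol and -0.02 for the ER. Lower by at least 1.5-fold were then CCT6A, HSPD1, HSPA9 and GRPEL1, 4 of 40, where 7.5% of all genes were, and higher was HSPB1, 1 of 40, where 5.11% were. DNAJA1 was then at -0.32 and CCT4 at -0.48.

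The combined array set against the guanosine array gives the MPA difference in the presence of guanosine, with no array shared with MPA against control. Of the 40 genes, 0 passed 1.5-fold in either direction, where 0.0184% of 10861 genes passed downward and 0.0% upward. The median was -0.0032, and 38 of the 40 genes lay within 0.15 on the log2 scale of no difference, against 10 of 40 in MPA against control. Among all genes compared, 88.8% and 36.7% lay within that window. CCT6A differed by -0.06, HSPD1 by 0.04, CCT4 by -0.0047, DNAJA1 by 0.02, HSPB8 by 0.07, HSPB1 by 0.10 and HERPUD1 by -0.05. The exceptions were PDIA3 at 0.37, with 0.07 at its other probe set, and SDF2L1 at 0.21.

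**Figure D4:**
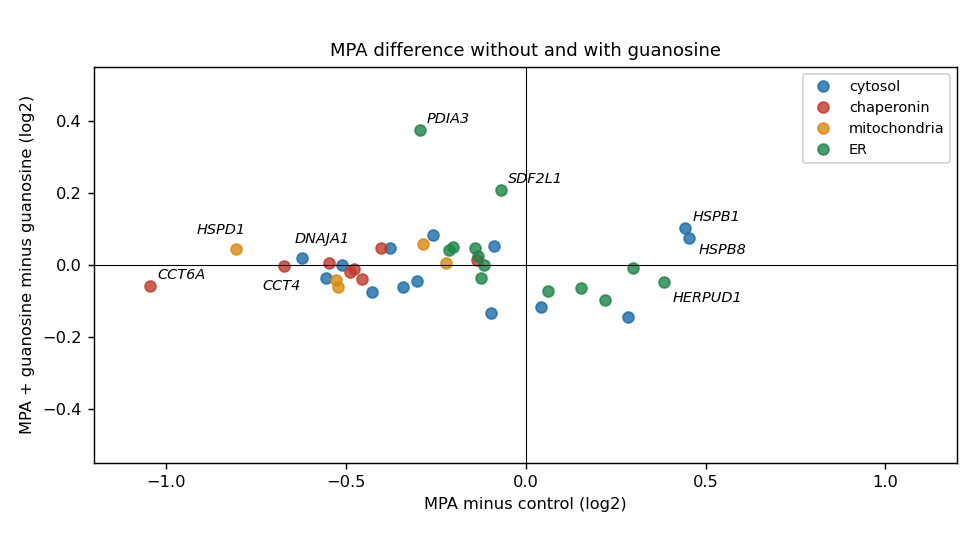
Log2 difference of MPA from control (x axis) and of MPA with guanosine from guanosine alone (y axis) for the 40 chaperone genes, coloured by compartment. The points spread from -1.04 to 0.46 along x and, except PDIA3 at 0.37 and SDF2L1 at 0.21, lie within 0.15 of 0 along y.

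The combined array set against the MPA array gives the guanosine difference in the presence of MPA. It shares the MPA array with MPA against control and no array with guanosine against control. Of the 40 genes, 29 were higher and 11 lower with a median of 0.19, where 51.8% of all genes were higher. The spike-in median was 0.60. Higher by at least 1.5-fold were CCT6A (1.80-fold), HSPD1 (1.73-fold) and HSPA9 (0.68 on the log2 scale), 3 of 40, where 8.47% of 11215 genes were. HSPB1 was 1.59-fold lower, 1 of 40, where 4.77% were. Those shares of the members lie near or below the background, and after the median shift HSPA9 no longer passed. All genes past 1.5-fold divided into 950 higher and 535 lower, and into 652 and 823 after a median shift of the arrays.

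The mitochondrial genes had the largest median in that comparison, 0.53 with 5 of 5 higher, followed by the chaperonin at 0.35 with 8 of 8 higher. CCT7, at 0.03, turned to below 0 after cyclic loess and after the median shift. The cytosolic median was 0.19, from HSPB1 at -0.67 to DNAJA1 at 0.34, with HSPB8 at -0.44. The ER median was 0.07 and became -0.03 after cyclic loess, with PDIA3 at 0.49, HERPUD1 at -0.34 and HSPA5 at 0.16. HSPA9 differed by 0.68 here and by 0.19 in guanosine against control, so guanosine was the brighter side both times, on separate arrays. In guanosine against control, 1 of its 4 other probe sets was at -0.0052. The spike-in medians were also above 0 both times, at 0.60 here and 0.22 there. The chaperonin genes changed side, with 8 of 8 higher here and 8 of 8 lower in guanosine against control. HSPB1 was the dimmer with guanosine both times, at -0.67 and -0.33.

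Other genes of protein folding were taken from 10 lists of 141 genes, of which 133 had a value and 124 reached the floor in MPA against control. Of these, 54 were higher and 70 lower with a median of -0.07, 2 of 124 passed 1.5-fold upward and 8 downward. Over all genes 5.31% passed upward and 7.31% downward, so the downward count was near the background and the upward one below it. The HSP70 and HSP90 co-chaperones lay closest to the main group, with 14 of 17 lower and a median of -0.24. Past 1.5-fold were SUGT1 at -0.85 and CHORDC1 at -0.82, both HSP90 partners, and PTGES3, the HSP90 co-chaperone p23, at -0.69. PTGES3 read 5822 in the control, 3616 with MPA, 5431 with guanosine and 5468 with both, with the MPA array the dimmest.

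The J-domain proteins outside the group had 10 of 17 lower, with DNAJC9, a histone chaperone, at -0.98, DNAJC5 at -0.61 and DNAJC2, which acts at the ribosome, at -0.61. DNAJB6 was highest there at 0.18. In the HSP70 family, HSPA14 was at -1.11 and HSPA4L at 1.25, with HSPA4L at 115.9 in the control and 276.2 with MPA. HSPB3, a small heat shock protein, read 149.4 with MPA and 52.72 in the control, the latter below the floor. HSPB3 entered the comparison, and the upward count, only through the MPA array, so its direction was fixed by the filter. CRYAB was at 0.19 and HSPB7 at -0.06.

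Prefoldin and chaperonin helpers had a median of -0.14 over 13 genes, from PDCL at -0.32 to PDCL3 at 0.43. Mitochondrial chaperones and proteases outside the group had a median of 0.02, with 7 of 15 lower and only PHB2 past 1.5-fold, at -0.59. The heat shock factor list had 2 genes above the floor, HSF4 and HSBP1, both at 0.27. The ER lists held 0 genes past 1.5-fold. Oxidative folding and glycoprotein control had a median of -0.07 over 23 genes, from UGGT1 at -0.49 to ERO1B at 0.53. ERO1B read 46.72 in the control, below the floor, and 67.37 with MPA. It entered only through the MPA array, so its direction was fixed by the filter. Degradation and co-chaperones had -0.06 over 20 genes, from DERL2 at -0.38 to EDEM2 at 0.45. Sensors and factors had 0.02 over 9 genes, from EIF2AK3, which encodes PERK, at -0.38 to WFS1 at 0.46.

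With guanosine alone, BAG1, an exchange factor of HSP70, was the 1 gene of 122 in these lists past 1.5-fold, where 0.339% of all genes passed upward. It read 245.2 in the control, 209.1 with MPA, 385.4 with guanosine and 418.3 with both, so both arrays with guanosine lay above both without. It differed by 0.65 in guanosine against control and by 0.77 in both compounds against control, on a probe set whose probes can bind several genes. In both compounds against MPA, 10 of 124 genes of the lists were past 1.5-fold upward, near the 8.47% of all genes, and 2 downward, below the 4.77%. The latter were HSPA4L at -1.53 and HSPB3 at -1.64, and HSPB3 reached the floor on the MPA array alone. Among the upward ones were DNAJC5 at 0.88, DNAJC9 at 0.82 and HSPA14 at 0.81.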

How the data were processed

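The authors deposited 1 value for each of 49395 probe sets on 4 arrays. Per the labels these are RMA signals of PrimeView arrays, and their range shows that the deposited intensity is linear. Software and settings: not given in the sources used here. RMA brings the arrays to one distribution, so a change in total mRNA per cell would not be seen.

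The log2 of each value was taken. A gene was its brightest probe set with 1 symbol in the platform's gene table (44988 probe sets, 18132 genes). Genes were compared where the brighter of the arrays reached the floor of 63.0, the median of all non-control values. Genes were counted at 1.5-fold and 2-fold. With 1 array per condition no test was run, and precision is limited by that number. The members and lists were chosen with earlier results of these data known. Named were genes past 1.5-fold, the extremes of each compartment or list and 13 fixed genes, and further members were added after their values were seen. Alternatives were 2 scalings (cyclic loess with limma 3.58.1, 3 iterations, and a median shift), 2 floors, 3 probe set rules, an offset of 16 before log2 and other reference arrays. Counting was tested on simulated data. No coordinates of the array's probes were used. Python 3.11.15 and R 4.3.3 were used.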

Additional observations from a re-analysis of the deposited data

Results flagged for a closer look

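Of the 8 probe sets above the floor that carry a member's symbol together with another, and so entered no gene, 2 differed by at least 1.5-fold between MPA and control. The probe set of CCT8 and the pseudogene CCT8P1 differed by -0.65, where the probe set that stands for CCT8 differed by -0.40. The probe set of HSPD1 and HSPD1P5 differed by -0.75, where that of HSPD1 alone differed by -0.81. No condition had the 4 arrays that a search for outlying samples needs.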

How the results depend on the processing

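No paired analysis was possible because each condition had 1 array. A value is called moved here when it changed by more than 0.0971, the SD of all log2 differences between the combined and the guanosine array. No difference past 1.5-fold changed sign under any alternative run (0 reversed), and 1236 of 1354 values did not move. A change of sign was scored only for values past 1.5-fold, so smaller values could not count as reversed. The 2 floors and the rule for probe sets of 1 direction only keep or drop a gene. The value of a kept gene could not move under them, so these counts overstate stability. With each gene as the median of its probe sets, 7 members were at least 1.5-fold lower with MPA, against 4, where 6.88% of 9204 genes were. They were HSPA8, HSPH1, DNAJA1, STIP1, CCT2, CCT6A and HSPD1. Members with a median below the floor, such as HYOU1, dropped out, so the 7 are of fewer than 40. Their share thus lay further above that of all genes than under the main rule. HSPA8 was then read from a dimmer probe set, at 446.6 in the control and 246.5 with MPA. Against the guanosine array, 1 member was at least 1.5-fold higher with MPA, HSPB1, and the chaperonin median was -0.36. For guanosine, both compounds against MPA in place of guanosine against control gave 3 members higher and 1 lower by 1.5-fold, with medians of 0.19 over the members, 0.19 in the cytosol, 0.35 in the chaperonin and 0.53 in mitochondria. In both compounds against MPA, cyclic loess gave medians of 0.42 for mitochondria and -0.029 for the ER. The median shift there gave 0.091 for the members, 0.09 for the cytosol, 0.25 for the chaperonin, 0.43 for mitochondria and -0.0247 for the ER. The cause was not tested. Among all genes past 1.5-fold, the share that was higher went from 64.0% to 44.2% with that shift, from 75.5% to 61.2% in guanosine against control and from 75.4% to 59.6% in both against control. Single genes moved in 102 of 1060 values, a total that includes the alternatives under which they could not move. Signals are relative, and 12 members rest on 1 probe set above the floor.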
